A study of Mus musculus with 11 samples.

Results

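Interferon-stimulated genes were described as a set of 38 named mouse genes, chosen by symbol and read as 1 probe set per gene, the brightest on average across the 11 arrays. A probe set carrying 1 gene symbol was found for 36 of the 38, out of 18194 genes tested on the array. Isg15, a ubiquitin-like protein, had a probe set shared with other symbols, and Ifi44 had none of 1 symbol, so both are not analysed here.

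The arrays measured RNA of splenic T cells of C57BL6 mice, enriched by magnetic depletion of other cells, 1 one-colour Affymetrix mouse array per sample. Mice were female, aged 3 to 4 months, and either wild type (WT) or crbn-/- (knockout, KO), lacking cereblon, a substrate receptor of a ubiquitin ligase. Both genotypes were measured naive (3 WT and 3 KO arrays) and after 12 hours with plate-bound anti-CD3 at 5 µg/ml and soluble anti-CD28 at 1 µg/ml (2 WT and 3 KO arrays). The design asks how the T cell programme differs between genotypes in either state. The labels name no group cultured for 12 hours without the antibodies, so stimulation and culture cannot be told apart. They mark each array as a biological replicate of its group. Neither the part of Crbn that was removed nor any pooling of animals is stated in the labels.

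Type I interferons signal through the receptor pair IFNAR1 and IFNAR2 to the kinases JAK1 and TYK2, and from them to a transcription factor complex with the DNA-binding subunit IRF9, which binds the interferon-stimulated response element (ISRE) in promoters. Interferon gamma uses another receptor and acts on promoters through the gamma-activated site (GAS), and many target genes answer to both kinds of interferon. The products of these genes sense viral RNA, degrade it, block translation, hold back virus release or damp the signal itself, and resting lymphocytes are known to express many of them without infection.

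The probe set for Crbn checked the genotype labels. It stood between 10.06 and 10.21 in WT naive arrays and between 8.91 and 9.07 in KO naive arrays. In activated cells it stood at 9.47 and 9.71 in WT and between 8.58 and 8.77 in KO, so the genotypes did not overlap in either state. The level of the probe set is not at the floor of the array in KO cells, and where it lies relative to the deletion is not stated in the labels. Values throughout are log2 RMA levels, on which a difference of 1 is 2-fold, and levels of different probe sets are not compared. The T cell label was checked with 8 measured T cell markers, whose summed linear level was 27849 to 31290 in naive arrays and 16399 to 19002 in activated ones. Cd3e, a chain of the T cell receptor complex, lay between 11.82 and 11.97 in naive and between 11.14 and 11.34 in activated arrays. Some summed lists used as markers of other cells were lower after activation, with no overlap between states. These were the lists for macrophages and monocytes (707 to 1231 naive, 481 to 582 activated), natural killer cells (4092 to 6692 and 2407 to 3289) and plasmacytoid dendritic cells (3068 to 3764 and 2466 to 2719). The lists for plasma cells (6054 to 7975 and 4001 to 4573) and platelets (854 to 1034 and 530 to 647) did the same. Whether T cells also carry RNA of these genes was not tested. Sums are carried by bright probe sets. Of 7 macrophage and monocyte markers 4 fell in each genotype, and of 5 natural killer cell markers 2 fell and 1 rose in WT and 3 fell and 1 rose in KO. Of 6 plasmacytoid dendritic cell markers Ccr9 fell and Klk1 rose in both genotypes, and of 4 plasma cell markers Jchain fell and 1 rose. Of 5 platelet markers 1 fell in WT, and 2 fell and 1 rose in KO. These counts are of limma calls at an adjusted p under 0.05. Over all genes 20.9% were called lower and 20.2% higher in WT, and 22.4% and 20.7% in KO. The counts of plasmacytoid dendritic cell and plasma cell markers, and the platelet marker that fell in WT, lie near these shares. Dendritic cell sums were higher in WT activated (552 to 567) than in WT naive arrays (478 to 536) and lay within the naive range in KO. B cell sums were 1189 to 3070 in naive and 634 to 1810 in activated arrays, and overlapped. Stress and immediate early genes such as Fos and Egr1 summed to 25128 to 27534 in naive and 5114 to 6339 in activated arrays. The part of these shifts in the results that follow was not tested, and in bulk RNA fewer cells of a type and less RNA per cell cannot be told apart.

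Promoter sequences were taken from the RefSeq promoter table of GRCm38.p6, which gives 250 bases before to 50 bases after a gene's start and held 28 of the 38 genes. The ISRE search looked on both strands for GAAA, any pair of bases NN, and GAAA again, which on the opposite strand reads TTTC, NN, TTTC. A match lay in the promoter of 12 of the 28 genes (42.9%), and of 11 of the 26 that were also measured (42.3%), against 1079 of all 27025 genes with an entry (3.99%). The search for GAS used the palindrome TTCNNNGAA, which matched 7 of the 26 (26.9%) against 9.55% of all genes. ISRE and GAS matches may overlap, and a match is a description of letters, not a site shown to be bound. The 160 bases before the start are shown for 5 of the genes with an ISRE match in this stretch, which span small, large and no falls, and for Cmpk2 and Samd9l, which fell most and had no match in the whole window. Gbp2, an interferon-inducible GTPase gene outside the set that rose, is shown for comparison. Capitals mark ISRE matches, and sequences run 5′ to 3′ on the strand of the gene.
Ifit1, chr19:34640729-34640888, plus strand: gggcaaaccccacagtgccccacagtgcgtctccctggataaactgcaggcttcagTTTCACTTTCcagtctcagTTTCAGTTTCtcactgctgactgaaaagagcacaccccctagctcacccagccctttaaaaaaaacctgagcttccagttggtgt
Ifit3, chr19:34583369-34583528, plus strand: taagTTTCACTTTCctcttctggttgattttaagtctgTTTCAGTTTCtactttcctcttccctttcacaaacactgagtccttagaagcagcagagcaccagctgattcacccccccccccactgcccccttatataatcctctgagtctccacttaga
Oas3, chr5:120777660-120777819, minus strand: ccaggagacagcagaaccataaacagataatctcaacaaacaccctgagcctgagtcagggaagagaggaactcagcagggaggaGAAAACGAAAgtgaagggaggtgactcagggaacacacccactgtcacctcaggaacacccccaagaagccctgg
Rsad2, chr12:26456453-26456612, minus strand: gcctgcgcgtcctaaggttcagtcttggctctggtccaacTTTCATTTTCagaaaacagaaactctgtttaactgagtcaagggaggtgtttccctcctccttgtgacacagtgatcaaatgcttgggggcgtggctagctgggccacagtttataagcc
Bst2, chr8:71537473-71537632, minus strand: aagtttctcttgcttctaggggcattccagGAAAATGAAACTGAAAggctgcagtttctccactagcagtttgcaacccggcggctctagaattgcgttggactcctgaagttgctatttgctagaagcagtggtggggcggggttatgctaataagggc
Cmpk2, chr12:26469055-26469214, plus strand: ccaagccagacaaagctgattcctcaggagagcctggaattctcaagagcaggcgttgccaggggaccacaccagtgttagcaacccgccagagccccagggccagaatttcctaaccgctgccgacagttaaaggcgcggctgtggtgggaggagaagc
Samd9l, chr6:3399572-3399731, minus strand: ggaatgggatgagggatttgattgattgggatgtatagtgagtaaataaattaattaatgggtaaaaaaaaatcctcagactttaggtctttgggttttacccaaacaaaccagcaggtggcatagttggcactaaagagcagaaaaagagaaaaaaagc
Gbp2, chr3:142620503-142620662, plus strand: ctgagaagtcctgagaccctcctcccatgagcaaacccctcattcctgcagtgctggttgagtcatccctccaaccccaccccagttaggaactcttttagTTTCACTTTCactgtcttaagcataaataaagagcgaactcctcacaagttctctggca
Ifit1 and Ifit3 each held 2 separate matches, beginning 104 and 85 bases before the start of Ifit1 and 156 and 122 bases before that of Ifit3. In Bst2 a pair of matches overlapped, beginning 130 and 124 bases before the start. Rsad2 and Cmpk2 are neighbours on chromosome 12, on opposite strands. The median change on activation of the 11 measured genes with an ISRE match was -0.80 in WT and -0.96 in KO, with 10 lower in each. The 15 with a promoter and no match had medians of -0.98 and -0.93, with 12 and 14 lower. No test was made of this split.

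Activated WT cells had lower levels of most of the set than naive WT cells. In limma with Benjamini-Hochberg adjustment over all genes, 32 of 36 fell and 0 rose past an adjusted p of 0.05, where 20.9% of all genes tested were called lower and 20.2% higher. The median difference was -0.89, against 0.06 over all genes, so the median gene was left at 53.9% of its naive level. In 34 of 36 genes both activated arrays lay under all 3 naive arrays, which was so for 25.8% of all genes, and 16 fell at least 2-fold, against 5.61%. Differences ran from -3.11 for Cmpk2 to 0.16 for Bst2.

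In KO cells the same comparison gave 34 of 36 lower and 0 higher, where 22.4% of all genes were called lower and 20.7% higher. The median difference was -0.94, against -0.03 over all genes, leaving the median gene at 52.1% of its naive level. All 3 activated arrays lay under all 3 naive ones in 33 of 36 genes (28.0% of all genes), and 15 fell at least 2-fold (5.86%). The 32 genes called in WT were all called in KO, Dtx3l and Tap1 were called in KO alone, and Oasl2 and Bst2 in neither. Dtx3l and Tap1 missed the threshold in WT by little (adjusted p = 0.0503 and 0.0526), and their difference between genotypes was not past the threshold (interaction adjusted p = 0.83 and 0.87).

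**Figure D1:**
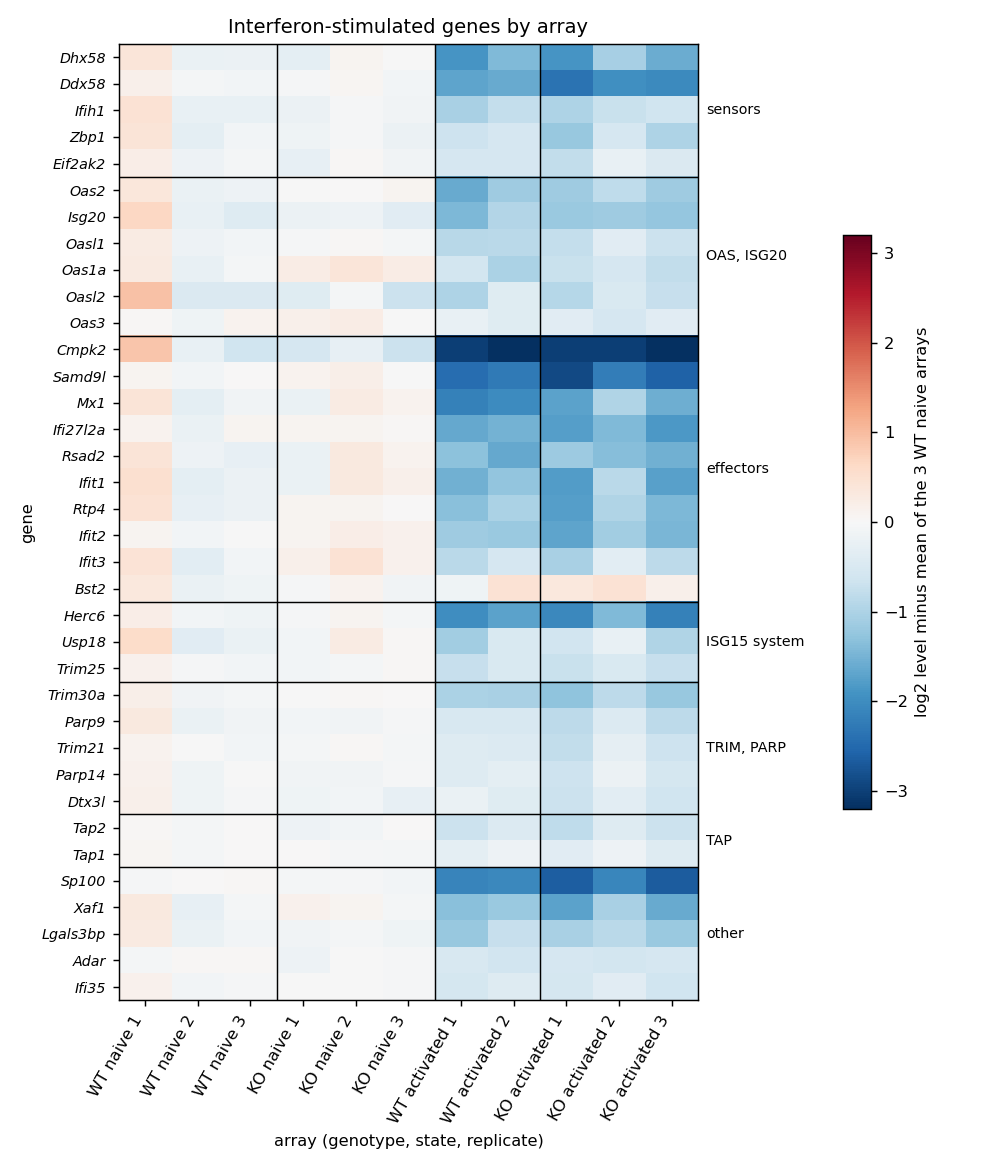
Log2 level of each of the 36 measured genes (rows, grouped by role) in each of the 11 arrays (columns), minus the mean of the 3 WT naive arrays of that gene, with blue lower and red higher. Activated arrays of both genotypes are blue in nearly every gene, Bst2 is the exception, and WT naive array 1 is the reddest naive column.

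The sensors of viral nucleic acid and the kinase PKR made a group of 5, and all 5 fell in both genotypes, with medians of -0.91 in WT and -0.79 in KO. Ddx58 encodes RIG-I, the cytosolic sensor of RNA with a free triphosphate end. Its levels were 10.14, 9.93 and 9.91 in WT naive, 9.95, 10.06 and 9.91 in KO naive, 8.30 and 8.39 in WT activated, and 7.64, 8.04 and 7.95 in KO activated arrays. All activated arrays lay under all naive ones, and the KO activated arrays lay under the WT activated ones. Ddx58 fell by 1.65 in WT (SE 0.11, 3.13-fold, adjusted p = 1.7e-07) and by 2.10 in KO (SE 0.10, 4.28-fold, adjusted p = 3.8e-09).

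Dhx58 encodes LGP2, a relative of RIG-I that lacks its signalling domain. It stood at 8.25, 7.65 and 7.68 in WT naive, 7.54, 7.95 and 7.84 in KO naive, 5.97 and 6.44 in WT activated, and 5.97, 6.81 and 6.26 in KO activated arrays. It fell by 1.65 in WT (SE 0.24, adjusted p = 8.4e-05) and by 1.43 in KO (SE 0.21, adjusted p = 8.3e-05), with no overlap between states. A dimmer probe set of Dhx58, with a mean level of 5.07, was not called in WT (0.14, limma adjusted p = 0.39) or in KO (-0.03, adjusted p = 0.87). The dimmest, with a mean level of 4.30, lay under the lowest lower quartile of any array (4.57) and was not called in either genotype. Ifih1, the gene of the long double-stranded RNA sensor MDA5, fell by 0.91 (SE 0.18) in WT and by 0.66 (SE 0.16) in KO. Zbp1, a sensor of nucleic acid in the Z form, fell by 0.60 (SE 0.20, adjusted p = 0.026) in WT and by 0.79 (SE 0.18, adjusted p = 0.0021) in KO. Its second probe set, with a mean level of 8.84, was not called in WT (-0.37, limma adjusted p = 0.13) or in KO (-0.23, adjusted p = 0.29). Eif2ak2, the gene of PKR, which stops translation on binding double-stranded RNA, moved least of the 5 by the probe sets used. It stood at 7.27, 6.90 and 6.98 in WT naive and at 6.51 and 6.50 in WT activated arrays, and fell by 0.54 (SE 0.15, adjusted p = 0.010). In KO it fell by 0.39 (SE 0.13, adjusted p = 0.032). Its KO levels were 6.78 to 7.10 in naive and 6.27 to 6.80 in activated arrays, overlapping by a narrow margin. Another probe set of Eif2ak2, with a mean level of 6.49, fell by 1.13 in WT (limma adjusted p = 0.00018) and by 0.67 in KO (adjusted p = 0.0034). A further probe set (mean level 6.39) fell by 0.58 in WT (adjusted p = 0.015) and was not called in KO (-0.12, adjusted p = 0.57).

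Of the oligoadenylate synthetase family and the nuclease Isg20, 5 of 6 genes fell in both genotypes (median -0.83 in WT and -0.77 in KO). The synthetases answer double-stranded RNA with short oligoadenylates that switch on RNase L. Oas2 moved most: it stood at 9.04, 8.47 and 8.51 in WT naive, 8.67, 8.69 and 8.77 in KO naive, 7.06 and 7.54 in WT activated, and 7.55, 7.87 and 7.52 in KO activated arrays. States did not overlap, and Oas2 fell by 1.37 in WT (SE 0.18, 2.59-fold, adjusted p = 3.0e-05) and by 1.06 in KO (SE 0.16, 2.09-fold, adjusted p = 7.8e-05). Isg20, an RNA exonuclease, fell by 1.19 in WT (SE 0.25) and by 0.95 in KO (SE 0.22). Oas1a, another synthetase, fell by 0.80 and 0.96, and Oasl1, a family member without synthetase activity, by 0.87 and 0.58.

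Oas3, whose ISRE match is shown above, had the smallest change among the called genes of this family. It stood at 8.53, 8.34 and 8.58 in WT naive, 8.65, 8.71 and 8.47 in KO naive, 8.24 and 8.08 in WT activated, and 8.13, 7.95 and 8.11 in KO activated arrays. It fell by 0.32 in WT (SE 0.10, adjusted p = 0.023) and by 0.55 in KO (SE 0.09, adjusted p = 0.00023), without overlap in either. Oasl2, a further synthetase-like gene, was not called in either genotype. Its naive values were 8.31, 6.89 and 6.89 in WT and 6.98, 7.30 and 6.68 in KO, and its activated values were 6.38 and 6.98 in WT and 6.45, 6.88 and 6.62 in KO. WT naive array 1 stood 1.42 above the mean of the other WT naive arrays, the groups overlapped, and the differences were -0.68 (SE 0.35, adjusted p = 0.15) and -0.33 (SE 0.32, adjusted p = 0.46).

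The antiviral effectors held the largest falls, with 9 of 10 genes lower in both genotypes and medians of -1.43 in WT and -1.50 in KO. Cmpk2 encodes a mitochondrial nucleotide kinase, and its shown promoter had no ISRE match. Its levels were 9.63, 8.50 and 8.10 in WT naive, 8.21, 8.49 and 8.07 in KO naive, 5.74 and 5.54 in WT activated, and 5.72, 5.73 and 5.30 in KO activated arrays. The states stood far apart, and WT naive array 1 was the highest of all arrays. Cmpk2 fell by 3.11 in WT (SE 0.32, 8.61-fold, adjusted p = 4.8e-06) and by 2.67 in KO (SE 0.29, 6.36-fold, adjusted p = 4.3e-06).

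Samd9l, an antiviral and growth-restraining factor, had tighter groups. It stood at 10.88, 10.71 and 10.81 in WT naive, 10.92, 10.99 and 10.79 in KO naive, 8.37 and 8.55 in WT activated, and 7.92, 8.58 and 8.21 in KO activated arrays. It fell by 2.34 in WT (SE 0.15, 5.07-fold, adjusted p = 8.7e-08) and by 2.67 in KO (SE 0.13, 6.35-fold, adjusted p = 4.8e-09). Mx1, a dynamin-like GTPase gene, stood at 7.03, 6.30 and 6.49 in WT naive and 6.38, 6.86 and 6.70 in KO naive arrays. Its activated values were 4.44 and 4.59 in WT, and 4.89, 5.63 and 5.04 in KO. The WT activated values lie at the lowest lower quartile of any array (4.57) and Mx1 was the 1 gene of the set with an array below it. The measured fall was 2.09 in WT (SE 0.23), which is a lower limit at these levels, and 1.46 in KO (SE 0.20).

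Ifit1 binds viral RNA that lacks the methylation of host caps. It stood at 9.61, 8.77 and 8.90 in WT naive, 8.89, 9.40 and 9.26 in KO naive, 7.56 and 7.82 in WT activated, and 7.32, 8.23 and 7.35 in KO activated arrays. States did not overlap, and Ifit1 fell by 1.40 in WT (SE 0.28, adjusted p = 0.0012) and by 1.55 in KO (SE 0.25, adjusted p = 0.00018). Its relatives Ifit2 and Ifit3 fell by 1.17 (SE 0.13) and 0.69 (SE 0.22) in WT and by 1.57 (SE 0.11) and 0.99 (SE 0.20) in KO. In Ifit3 levels of 8.84, 8.07 and 8.31 in WT naive and 8.56, 8.87 and 8.53 in KO naive arrays compared with 7.56 and 7.88 in WT activated and 7.36, 8.06 and 7.57 in KO activated arrays. Its WT states stood close.

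Rsad2 encodes viperin, which makes a chain-terminating nucleotide. It stood at 8.92, 8.35 and 8.25 in WT naive, 8.28, 8.81 and 8.61 in KO naive, 7.21 and 6.88 in WT activated, and 7.36, 7.14 and 6.97 in KO activated arrays, without overlap. It fell by 1.46 (SE 0.20) in WT and by 1.41 (SE 0.18) in KO. Ifi27l2a, a small mitochondrial protein gene, fell by 1.57 (SE 0.13) and 1.74 (SE 0.11), and Rtp4, a chaperone of membrane receptors, by 1.17 (SE 0.23) and 1.44 (SE 0.20).

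Bst2 encodes tetherin, which holds budding virus on the cell surface, and it did not fall. Its levels were 9.85, 9.29 and 9.37 in WT naive, 9.47, 9.63 and 9.39 in KO naive, 9.36 and 9.96 in WT activated, and 9.85, 9.95 and 9.67 in KO activated arrays. WT groups overlapped, and all KO activated arrays lay above all KO naive ones, as in 24.5% of all genes. The difference was 0.16 in WT (95% interval -0.24 to 0.55, adjusted p = 0.53) and 0.33 in KO (-0.02 to 0.68, adjusted p = 0.13). With the KO arrays fitted alone it passed the threshold (adjusted p = 0.020). Its promoter held the overlapping ISRE pair shown above.

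**Figure D2:**
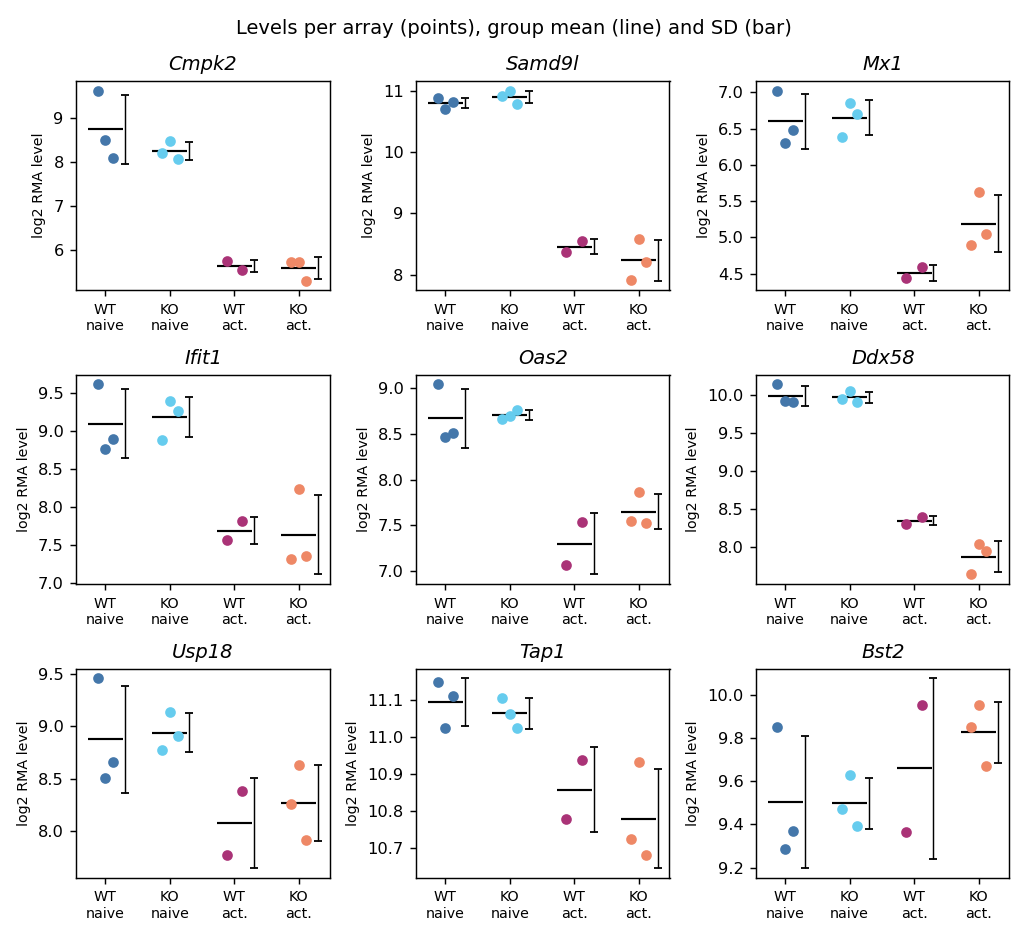
Log2 RMA level of 9 genes in each array, with points for arrays, lines for group means and bars for the SD within a group, in WT and KO naive (n = 3 each), WT activated (n = 2) and KO activated (n = 3) cells. Activated points lie under naive points for Cmpk2, Samd9l, Mx1, Ifit1, Oas2 and Ddx58, and overlap or rise for Bst2.

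Of the ISG15 system, which attaches and removes the ubiquitin-like ISG15, all 3 measured genes fell in both genotypes (median -0.80 in WT and -0.67 in KO). Herc6, the mouse ISG15 ligase, stood at 8.79, 8.47 and 8.43 in WT naive, 8.51, 8.65 and 8.49 in KO naive, 6.58 and 6.85 in WT activated, and 6.51, 7.15 and 6.39 in KO activated arrays. It fell by 1.85 in WT (SE 0.19, adjusted p = 3.6e-06) and by 1.87 in KO (SE 0.17, adjusted p = 7.0e-07), with no overlap. Usp18 removes ISG15 and also blocks the interferon receptor. It stood at 9.46, 8.51 and 8.66 in WT naive, 8.78, 9.14 and 8.91 in KO naive, 7.77 and 8.38 in WT activated, and 8.26, 8.63 and 7.91 in KO activated arrays. Its states lay close together, and it fell by 0.80 in WT (SE 0.27, adjusted p = 0.031) and by 0.67 in KO (SE 0.24, adjusted p = 0.040). Trim25, a ubiquitin ligase that acts on RIG-I, fell by 0.61 (SE 0.11) and 0.60 (SE 0.09).

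Among the TRIM, PARP and DTX3L regulators of antiviral signalling and ubiquitin, 4 of 5 fell in WT and 5 of 5 in KO, by less than the effectors (median -0.43 and -0.55). Trim30a, a mouse ubiquitin ligase, fell by 1.02 in WT (SE 0.12, adjusted p = 1.7e-05) and by 1.12 in KO (SE 0.11, adjusted p = 1.7e-06), from 10.38 to 10.68 in naive arrays of both genotypes to 9.20 to 9.65 in activated ones. Trim21, the cytosolic antibody receptor, fell by 0.43 and 0.55. Parp9, the partner of Dtx3l, fell by 0.52 and 0.61. Parp14, an ADP-ribosyltransferase, fell by 0.37 (adjusted p = 0.034) and 0.39 (adjusted p = 0.012), while its second probe set, with a mean level of 6.37, rose in WT by 0.38. For Dtx3l, a ubiquitin ligase, the differences were -0.31 in WT, not called, and -0.39 in KO, where it fell.

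The antigen peptide transporter feeds peptides to class I molecules. Tap2, 1 of its subunits, stood at 10.63, 10.53 and 10.62 in WT naive, 10.43, 10.50 and 10.59 in KO naive, 9.90 and 10.14 in WT activated, and 9.77, 10.17 and 9.91 in KO activated arrays. It fell by 0.57 in WT (SE 0.11, adjusted p = 0.0012) and by 0.56 in KO (SE 0.10, adjusted p = 0.00048). Tap1, the other subunit, had the smallest difference of the genes called in KO. It ranged from 11.02 to 11.15 in naive and from 10.68 to 10.94 in activated arrays of both genotypes, with differences of -0.24 in WT (SE 0.09), not called, and -0.28 in KO (SE 0.08, adjusted p = 0.011). Another probe set of Tap1, with a mean level of 6.04, was not called in WT (-0.04, limma adjusted p = 0.84) or in KO (-0.0084, adjusted p = 0.97).

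All 5 of the remaining genes fell in both genotypes (median -0.98 and -0.93). Sp100, a component of nuclear bodies that restrict DNA viruses, stood at 10.60, 10.65 and 10.67 in WT naive, 10.58, 10.59 and 10.55 in KO naive, 8.52 and 8.58 in WT activated, and between 7.97 and 8.55 in the 3 KO activated arrays, of which array 2 was the highest. All activated arrays lay far under all naive ones. It fell by 2.09 in WT (SE 0.14, 4.26-fold, adjusted p = 1.1e-07) and by 2.40 in KO (SE 0.12, 5.27-fold, adjusted p = 5.5e-09). Xaf1, a partner of the apoptosis inhibitor XIAP, fell by 1.25 (SE 0.19) and 1.51 (SE 0.17). Lgals3bp, a secreted glycoprotein, fell by 0.98 (SE 0.15) and 0.93 (SE 0.14). Adar, which edits adenosine in double-stranded RNA, fell by 0.56 (SE 0.08) and 0.49 (SE 0.07), and Ifi35, a leucine zipper protein, by 0.49 (SE 0.10) and 0.50 (SE 0.09).

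**Figure D3:**
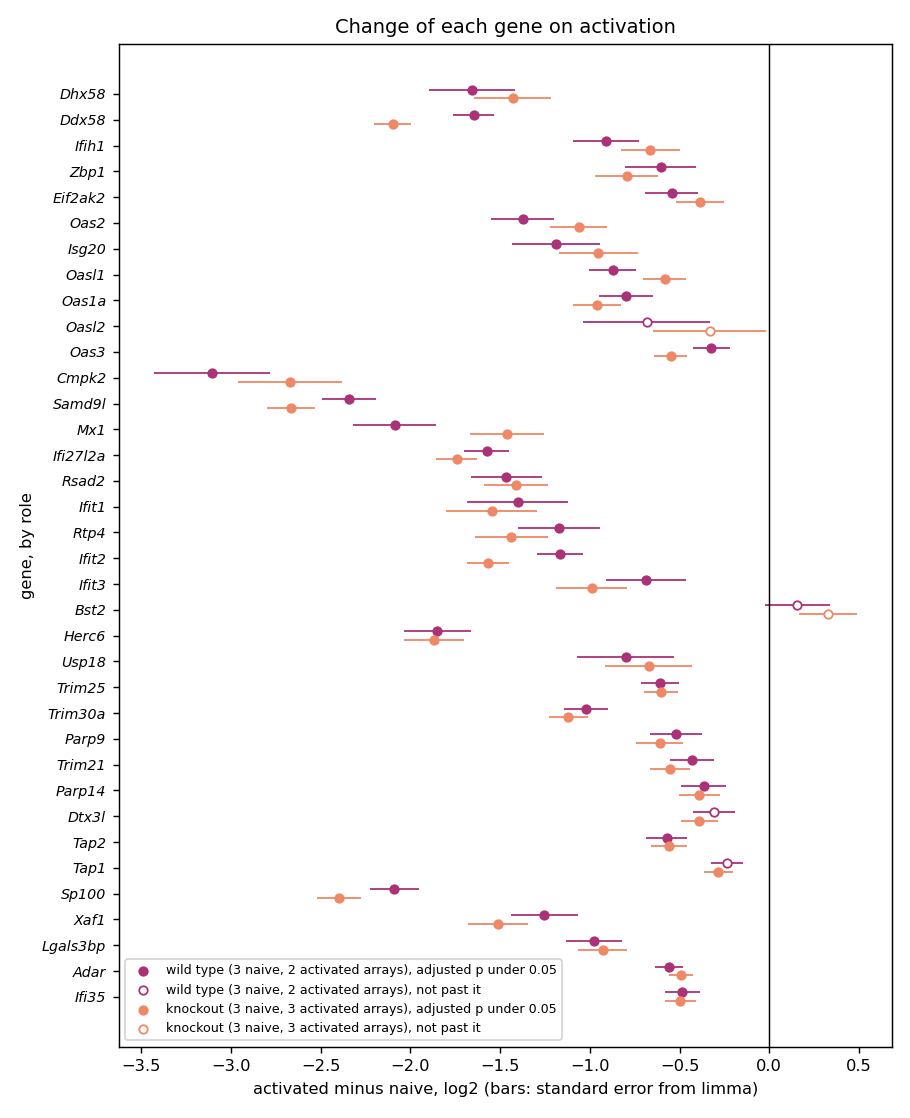
Activated minus naive log2 difference of each of the 36 genes in WT (3 naive and 2 activated arrays) and KO (3 and 3), with bars for the standard error from limma and open points for differences not past an adjusted p of 0.05. Points lie left of 0 for all genes but Bst2, and reach -3.11 for Cmpk2 in WT.

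Another 29 probe sets, from 18 of the genes, were less bright than the ones used. Of these, 15 fell and 2 rose in WT, with p-values adjusted over all probe sets of 1 symbol, where 18.9% were called lower and 18.9% higher. In KO 14 fell and 1 rose, where 20.2% were called lower and 21.5% higher. The probe sets that rose were 1 of Parp14 and 1 of Tap1 in WT, and 1 of Trim25 in KO (by 0.47). The mean level of that Tap1 probe set was 4.35, under the lowest lower quartile of any array, and 3 of the 29 lay under it, so their differences say little.

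Arrays of a group differed in the level of the whole set. WT naive array 1 was the highest of its group in 33 of 36 genes, where an array was highest for 33.9% of all genes, with a median of 0.40 above the mean of the other arrays. KO activated array 2 was the highest of its group in 32 of 36 (36.7% of all genes) by a median of 0.37, and KO naive array 2 in 29 of 36 (30.5%) by 0.11. The WT naive array also had the highest summed level of 5 erythroid markers, 7065 against 3295 and 1854 in its group and 402 to 2578 elsewhere. It was also the highest of its group for neutrophil (513 against 395 and 366) and plasma cell sums (7546 against 6644 and 6054), and the lowest of all naive arrays for T cell (27849), B cell (1189) and macrophage and monocyte sums (707). KO activated array 2 was the highest of its group for T cell (18051 against 16399 and 16732), plasmacytoid dendritic cell (2719 against 2576 and 2466) and natural killer cell sums (3289 against 2901 and 2407). The part of these differences in the level of the set was not tested.

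Without WT naive array 1, 27 of 36 genes fell in WT (median -0.71), where 3563 of all 18194 genes fell. Zbp1, Oas3, Ifit3, Usp18 and Parp14 were then no longer called (limma adjusted p between 0.059 and 0.11). Leaving out WT activated array 1 gave a median of -0.82 in WT, and leaves that group with 1 array assumed to vary like the others. Without KO activated array 2, 34 of 36 fell in KO (median -0.999), where 3810 of all genes fell. Without KO activated array 3, 30 fell (median -0.88), where 3728 of all genes fell. Without KO activated array 1, 31 fell (median -0.88), where 3761 of all genes fell. Eif2ak2, Usp18 and Parp14 were not called in KO without either of these arrays (limma adjusted p between 0.051 and 0.16). Eif2ak2 and Usp18 also lost their KO calls without KO naive array 2 or KO naive array 3.

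**Figure D4:**
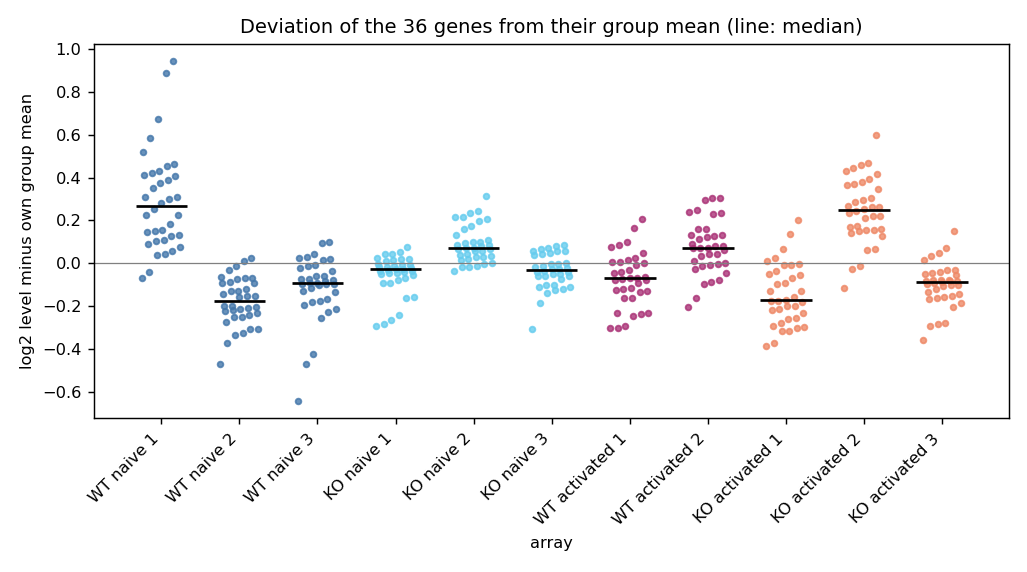
Log2 level of each of the 36 genes minus the mean of its own group, for each of the 11 arrays, with points for genes and lines for the median. The points of WT naive array 1 and KO activated array 2 lie mostly above 0, with medians of 0.27 and 0.25.

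Between genotypes, naive cells showed no called difference in the set: limma called 0 of 36 genes, and 0 had an unadjusted p under 0.05, where 0.148% of all genes passed the adjusted and 14.5% the unadjusted threshold. The median KO minus WT difference was -0.02, and differences ran from -0.49 for Cmpk2 (95% interval -1.12 to 0.14) to 0.29 for Oas1a (-0.01 to 0.58). Groups did not overlap in Ifit2, higher in KO at 9.78 to 9.90 against 9.61 to 9.77, and in Sp100, lower at 10.55 to 10.59 against 10.60 to 10.67, where 9.94% and 10.4% of all genes did so. With 3 arrays a group the median SE of a difference was 0.13, and shifts within the intervals remain possible.

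In activated cells limma again called 0 of 36, where 0.0605% of all genes passed. The median difference was -0.05. An unadjusted p under 0.05 was reached by 3 genes (6.90% of all genes). Ddx58 was lower in KO by 0.47 (95% interval -0.72 to -0.22, adjusted p = 0.30), with 7.64 to 8.04 against 8.30 and 8.39. Mx1 was higher in KO by 0.67 (0.18 to 1.17, adjusted p = 0.53), with WT values at the lower quartile given above. Sp100 differed by -0.37 (-0.67 to -0.07, adjusted p = 0.61), and its groups overlapped. Without KO activated array 2 the difference of Sp100 was -0.56 with an adjusted p of 0.028, the 1 call that leaving out any array made between genotypes. Groups did not overlap in Mx1 and Oasl1, both higher in KO (7.37% of all genes), and in Ddx58, lower in KO (12.0%).

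The interaction asked whether the fall itself differed between genotypes, and limma called 0 of 36 genes and 0% of all genes. The median difference of the changes was -0.02, and 20 of 36 genes had the more negative change in KO. An unadjusted p under 0.05 was reached by 2 genes, Ddx58 at -0.45 (95% interval -0.79 to -0.12, adjusted p = 0.28) and Ifit2 at -0.40 (-0.77 to -0.03, adjusted p = 0.34), against 13.8% of all genes. Intervals over the set reached from -0.97 to 1.38, with a median SE of 0.20.

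The genes that make and carry the interferon signal moved in both directions on activation, and the counts in each list stand beside 20.9% of all genes called lower and 20.2% higher in WT, and 22.4% and 20.7% in KO. Of 5 measured ligands, Ifng, made by activated T cells and natural killer cells, rose in both genotypes. It stood at 8.77, 8.36 and 8.63 in WT naive, 8.77, 8.37 and 8.05 in KO naive, 12.15 and 12.52 in WT activated, and 12.76, 12.44 and 12.66 in KO activated arrays. It rose by 3.75 in WT (SE 0.19, adjusted p = 1.2e-08) and by 4.22 in KO (SE 0.17, adjusted p = 8.5e-10). The type I genes Ifna1, Ifna2, Ifna4 and Ifnb1 were not called. Ifna4 stood between 3.87 and 4.21 in all arrays, under the lowest lower quartile. Ifna2 (5.01 to 5.32) and Ifnb1 (5.54 to 5.82) stood under the array medians. Ifna1 stood between 5.72 and 6.34, near the array medians of 5.84 to 5.89. The lack of a call of these type I genes says little.

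Of 6 receptor genes 5 fell in both genotypes. Ifnar1 fell by 0.86 in WT and 0.84 in KO, Ifnar2 by 0.70 in each, the interferon gamma receptor gene Ifngr1 by 0.82 and 1.23, and Il10rb, a chain of the lambda receptor, by 0.70 and 0.97. Of the kinases, STATs and Irf9, 3 of 6 fell and 1 rose in both. Jak1, the kinase of both receptor types, fell by 1.24 (SE 0.09) and 1.35 (SE 0.08). Irf9, the DNA-binding subunit at the ISRE, fell by 0.96 and 1.05, Tyk2 by 0.50 and 0.54, and Jak2, a kinase of the gamma receptor, rose by 0.51 and 0.44.

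Among 6 other interferon regulatory factors 3 fell and 2 rose in both. Irf7, which drives type I interferon genes and is itself a target, stood at 9.20, 8.66 and 8.93 in WT naive and 7.41 and 7.54 in WT activated arrays. It fell by 1.46 in WT (SE 0.18, adjusted p = 2.1e-05) and by 1.58 in KO (SE 0.16, adjusted p = 2.3e-06). Irf8, a factor of myeloid and lymphoid cells, rose by 2.71 and 2.86, Irf2 fell by 0.41 and 0.50, Irf3 by 0.24 and 0.36, and Irf5 rose by 0.31 and 0.29. Of 8 brakes on the signal 1 rose and 3 fell in WT and 3 rose and 4 fell in KO, and the 1 that rose in WT is a smaller share than the 20.2% of all genes. Socs1, which inhibits JAK1, rose by 1.61 and 1.81, Socs3 fell by 0.83 and 1.44, the corepressor Irf2bp2 by 0.93 and 0.99, and Pias1 by 0.71 and 0.84. Of 10 measured adaptors and kinases upstream of interferon 4 fell in each genotype, and 0 rose in WT and 2 in KO, the latter near the 20.7% of all genes. Ikbke, a kinase of IRF3 and IRF7, fell by 1.27 and 1.58, and Tlr7 by 0.58 and 0.64, Tbk1 by 0.38 and 0.46 and Sting1 by 0.37 and 0.31. Mavs, the mitochondrial adaptor of RIG-I and MDA5, rose by 0.52 in KO (SE 0.09, adjusted p = 0.00029) and was not called in WT (0.15), and Cgas, the DNA sensor, rose by 0.31 in KO (adjusted p = 0.034) and was not called in WT (0.19).

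The interferon-inducible GTPases, known for attacking the vacuoles of intracellular pathogens and as strong targets of interferon gamma, went the other way from the 36 genes. Of 8 measured, 7 rose and 0 fell in both genotypes (median 0.80 in WT and 0.89 in KO). The counts were also 7 and 0 in WT without WT naive array 1, where 3263 of all 18194 genes rose. They were the same in KO without KO activated array 2, where 3528 of all genes rose. Gbp2 stood at 11.00, 10.35 and 10.35 in WT naive, 10.26, 10.31 and 10.13 in KO naive, 12.62 and 12.67 in WT activated, and 12.35, 12.53 and 12.29 in KO activated arrays, all activated arrays being above all naive ones. It rose by 2.08 in WT (SE 0.16, adjusted p = 4.4e-07) and by 2.15 in KO (SE 0.15, adjusted p = 5.8e-08). Iigp1 rose by 2.01 and 2.21, Irgm2 by 1.36 and 1.30, Irgm1 by 0.82 and 0.87, and Gbp3 by 0.74 and 0.91, while Gbp7 was not called (0.09 and -0.02). The whole list held 11 genes, measured or not, and 9 of them had a RefSeq promoter. Of these 9, 8 held an ISRE match (88.9%) and 5 a GAS match (55.6%), against 3.99% and 9.55% of all genes. Not all 9 were measured, and the match of Gbp2 is among the sequences above. WT naive array 1 and KO activated array 2 were the highest of their groups in all 8 measured GTPase genes too.

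**Figure D5:**
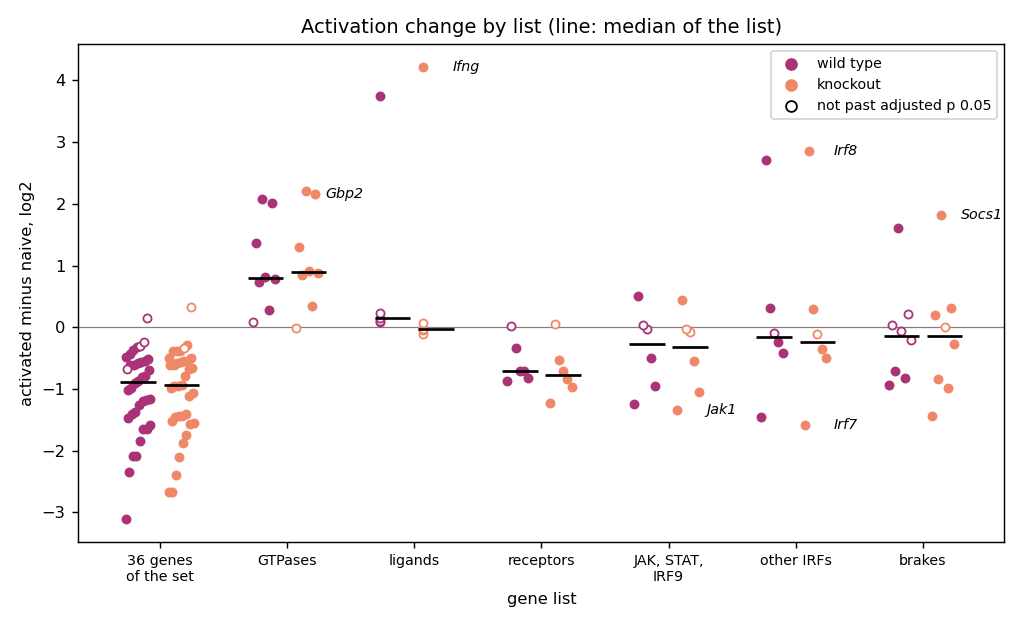
Activated minus naive log2 difference of each gene in the set of 36, the interferon-inducible GTPases and 5 lists of the pathway, in WT and KO, with filled points past an adjusted p of 0.05 and lines for the median of a list. The set of 36 lies under 0 with a median of -0.89 in WT, the GTPases lie mostly above 0 with a median of 0.80, and Ifng rises by 3.75 in WT and 4.22 in KO.

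Of 8 genes of the immunoproteasome and class I pathway 2 rose and 5 fell in both genotypes. The 2 that rose are near the share of all genes called higher, 20.2% in WT and 20.7% in KO. Psmb10, a catalytic subunit, fell by 0.98 in WT and 0.94 in KO, Psmb9 by 0.38 and 0.48, and Nlrc5, the activator of class I genes, by 0.65 and 0.60, while Erap1, the peptide-trimming protease, rose by 0.57 and 0.83. Without WT naive array 1, 2 of the 8 fell and 2 rose in WT, where 3563 of all 18194 genes fell and 3263 rose. Without KO activated array 2, 5 fell and 1 rose in KO, where 3810 of all genes fell and 3528 rose. Among 25 further targets 3 rose and 15 fell in WT and 5 rose and 13 fell in KO. Those that rose are no larger a share than the 20.2% and 20.7% of all genes. The chemokine gene Cxcl9 rose by 2.27 and 3.09 and Cxcl10 by 1.12 and 1.96, whereas Epsti1 fell by 2.12 and 2.78, Slfn5 by 1.92 and 2.10 and Mndal, a DNA-binding protein gene, by 1.45 and 1.58. In all 9 of these lists limma called 0 genes between genotypes and in the interaction.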

How the data were processed

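RNA of 11 samples was hybridised to 1 array each. Per the submitters' processing notes, GCOS, RMA and Partek were used, with versions not given in the sources used here, and the deposited values are log2 levels of 45101 probe sets (2.32 to 15.0, column medians 5.84 to 5.89). Their number of arrays limits the precision. Symbols came from the platform's annotation. Of the probe sets 34958 carried 1 symbol, 932 several and 9211 none, and the brightest per gene left 18194 genes.

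A mean for each of the 4 groups was fitted with limma 3.58.1 in R 4.3.3 with moderated variances (prior degrees of freedom 5.46, residual 7). P-values were two-sided and adjusted by Benjamini-Hochberg over all genes of a comparison, with a threshold of 0.05, and intervals are at 95%. Where nothing in the labels says which arrays share an animal, p-values measure the spread between these samples. The fit was tested on simulated data. Promoters were searched in Python 3.11.15 with pandas 2.3.3, and figures drawn with matplotlib 3.10.9.

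The members, role groups and lists were chosen with earlier results of these data known. Named were Crbn, all members (values for the largest and smallest changes of each role), and of each list up to 4 called genes of largest change in either genotype. Cd3e, Ccr9, Klk1, Jchain, Fos, Egr1, Gbp7, Cgas and the type I ligand genes were named after their values were seen. Alternatives covered the probe set per gene, the genes tested, dim genes, the variance prior, the samples fitted, normalization, array weights, the replicate number as a block, and each array left out.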

Additional observations from a re-analysis of the deposited data

How the results depend on the processing

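Under the alternatives tried, the fall of the set kept its direction and its side of the threshold as a whole in both genotypes. In WT 25 to 34 of 36 genes were called, and in KO 30 to 34. The 25 in WT with array weights stood beside 3544 of all 18194 genes called lower. The 30 in KO without KO activated array 3 stood beside 3728. No median moved by more than the spread of array medians within groups (SD 0.18). With each array left out in turn the medians were -1.03 to -0.71 in WT, -0.999 to -0.88 in KO, -0.07 to 0.10 between naive and -0.15 to -0.0041 between activated genotypes, and -0.14 to 0.03 for the interaction. Leaving out arrays called 0 of the 36 genes between naive genotypes and in the interaction, and 0 to 1 between activated ones. Without WT naive array 3, 91 of all 18194 genes were called higher and 250 lower between naive genotypes. Array weights called 25 in WT, and 1 between naive genotypes, Oas1a at 0.48 (adjusted p = 0.023), against 0 otherwise. With these weights 571 of all 18194 genes were called higher and 666 lower between naive genotypes, against 14 and 13 in the main fit. The mean of all probe sets of a gene gave Parp14 a change of 0.0094 in WT (adjusted p = 0.95), by its construction from the second probe set. With this mean limma no longer called Zbp1 in WT (-0.49, adjusted p = 0.058). It also no longer called Tap1 (-0.11, adjusted p = 0.28) and Parp14 (-0.076, adjusted p = 0.57) in KO. Testing all probe sets or centring each array on its median changed the side of 0 of 180 single results. The labels do not say what a replicate number marks, and same-numbered arrays deviated together in some pairs of groups and not in others (correlations of deviations -0.30 to 0.39, positive in all 3 KO pairs and all 3 naive pairs), so the samples were treated as unpaired. The replicate block called 33 genes in WT and 34 in KO, and the replicate block within genotype 31 and 34. Each called 0 of the 36 in every comparison of genotypes it could be fitted to. Of all 18194 genes the replicate block called 73 higher and 204 lower between naive genotypes, against 14 and 13 in the main fit. The block within genotype called 9 of all genes higher and 2 lower in the interaction, against 0 in the main fit. With 2 WT activated arrays, WT changes of single genes near the threshold, such as Zbp1, Oas3, Usp18, Parp14 and Dtx3l, are among the least certain. The KO calls of Eif2ak2, Usp18 and Parp14 also depended on single arrays. The causes of these shifts were not tested.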
